A study of Mus musculus with 4 samples.

Results

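The genes described here are the core of the inflammasome together with the 2 cytokines it matures, interleukin-1 beta (IL-1β) and interleukin-18 (IL-18), and the secreted proteins that block each of them. The members were chosen by gene symbol according to their role: the sensors Nlrp3 and Aim2, the adaptor Pycard, the caspases Casp1 and Casp4, the pore gene Gsdmd, the cytokines Il1b and Il18, and the antagonists Il1rn and Il18bp. They are 10 of the 24346 gene symbols listed, all 10 were matched, and none was at 0 in any library. RNA sequencing was performed on liver from adult male C57BL/6 mice that had been fed for 3 weeks a NASH diet, which is rich in fat, cholesterol and sucrose, contains bile salt and induces steatohepatitis. In the 7KC group (n = 2 libraries) the diet also held 7-ketocholesterol (7KC), an oxidation product of cholesterol, and in the control group (n = 2) it did not. Mice on ordinary chow are not part of the comparison, so each value below describes the addition of 7KC to a liver already under the NASH diet. The labels do not state that each library came from 1 mouse, and the p-values therefore measure only the spread between these samples, which may be technical.

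Inflammasomes are cytosolic complexes of innate immunity. A sensor that has met a danger signal recruits the adaptor ASC, the product of Pycard, which in turn gathers and activates caspase-1. Caspase-1 cuts the precursors of IL-1β and IL-18 into their active forms and cuts gasdermin D, whose freed part forms pores in the plasma membrane. Cholesterol crystals are a known trigger of the NLRP3 inflammasome, and Kupffer cells and recruited macrophages are its best known sites in fatty liver. Cleavage and secretion are not visible in RNA, so the values below are levels of the transcripts only.

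Expression is given as FPKM, in which the fragment number of a gene is divided by its exon length and by the total of the library, which allows levels to be compared between genes. Estimated depth, with a fragment length of 200 bases assumed, was 17030000 mapped reads in control replicate 1 and 13620000 to 13760000 in the others. Of the 230 genes used for it, 63.9% gave a value within 5% of the median. In each library 10967 to 11415 genes reached 1 FPKM. Hepatocyte markers, Alb among them, had by far the largest sum of the 10 marker lists in every library, which is what a liver should show. In bulk liver, fewer cells of a type and less RNA per cell cannot be told apart. The summed markers of monocytes and recruited macrophages were 620 and 379 FPKM in control replicates 1 and 2 and 1142 and 1831 FPKM in 7KC replicates 1 and 2. Most of each sum was Lyz2, at 538 and 321 FPKM against 995 and 1583 FPKM. Trem2 was at 4.75 and 3.02 FPKM against 4.63 and 16.3 FPKM, and Gpnmb at 9.37 and 3.67 FPKM against 8.40 and 34.3 FPKM. Both were above the 2 controls only in 7KC replicate 2. Of the markers in this list, Cx3cr1, Gpnmb, Trem2 and Adgre1 overlapped, and 6 of 10 had every 7KC library above every control library. Of all tested genes 25.1% lay apart in this way as higher and 27.4% as lower. All 9 tested markers of T and NK cells lay apart in the same direction, with sums of 20.4 and 14.6 FPKM in the controls and 51.7 and 43.6 FPKM with 7KC. Kupffer cell markers summed to 303 and 303 FPKM in the controls and to 349 and 522 FPKM with 7KC. Of these 6 markers, 3 lay apart as higher and 1, Vsig4, as lower, and Clec4f and Folr2 overlapped. Neutrophil markers summed to 36.3 and 20.6 FPKM against 40.7 and 43.7 FPKM, but their directions were mixed. Of 5 tested, 2 lay apart as higher and 1, Camp, as lower. Ngp, too low to be tested, was at 0.734 and 0.455 FPKM against 0.0765 and 0.0759 FPKM. Dendritic cell markers summed to 5.99 and 4.86 FPKM against 8.33 and 8.58 FPKM, and 2 of 4 tested lay apart as higher. The sum of hepatocyte markers was lower with 7KC, at 68430 and 57786 FPKM in the controls against 48941 and 36607 FPKM. The sum of stellate cell markers was lower too, at 158 and 162 FPKM against 115 and 141 FPKM. Most of that sum was Dcn, at 140 and 147 FPKM against 101 and 124 FPKM. Of the 5 stellate cell markers, 2 lay apart as lower, and Lrat, Des and Pdgfrb overlapped. B cell, endothelial and cholangiocyte sums overlapped between the groups. Among the 10 marker lists only the B cell marker Pax5 was at 0 in a library. The sums that lay apart between the groups accompany every result below, and their part in the results was not tested.

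**Figure D1:**
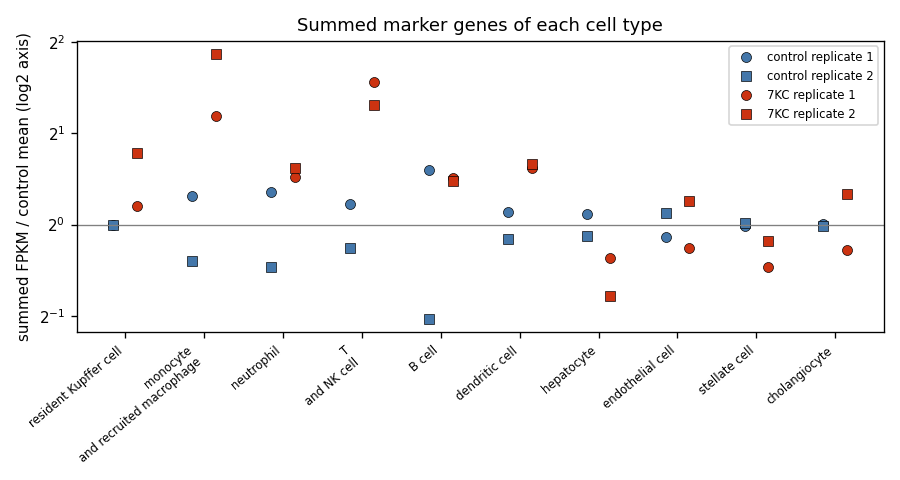
Summed FPKM of each list of cell type markers divided by its control mean (log2 axis), with 1 point per library, control in blue and 7KC in red. The monocyte and macrophage sum and the T and NK cell sum of both 7KC libraries lie above both control libraries, and the hepatocyte sum lies below them.

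All 10 members had a higher mean in the 7KC group, and for each of the 10 the lower 7KC value exceeded the higher control value. Among all 12299 tested genes, those whose mean reached 0.5 FPKM, 25.1% lay apart in this direction. For 8 of the 10 the mean was at least 2-fold higher without overlap, against 6.5% of all tested genes, and the exceptions were Gsdmd and Il18. On the log2(FPKM + 0.5) scale, where changes of low genes appear too small, the median change of the members was 1.06 and that of all tested genes was -0.03. The medians of the marker lists ran from -0.52 for hepatocytes to 1.52 for monocytes and recruited macrophages, with 1.20 for T and NK cells. Pycard was the only member that passed an adjusted p of 0.05 in limma with Benjamini-Hochberg adjustment over all tested genes, where 0.48% of all genes passed as higher. At an unadjusted p under 0.05, 9 members were higher, against 12% of all tested genes, and Il18 was the exception. When the libraries were scaled to the same FPKM sum, the median of all genes moved by 0.18 (log2), 7 members passed in limma against 3.24% of all genes, and 46.5% of all genes lay apart as higher. Relative to the median of all genes, the members' median was 1.08 in FPKM and 1.09 after that scaling.

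**Figure D2:**
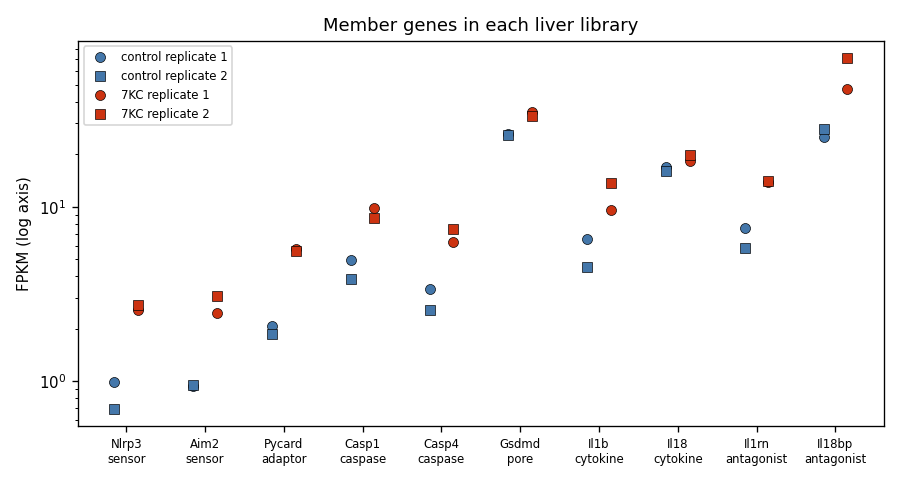
FPKM of each of the 10 members (log axis) with 1 point per library, control in blue and 7KC in red. In each of the 10 genes the 7KC points lie above the control points, with the narrowest separation in Il18, from 17.0 FPKM in the highest control to 18.2 FPKM in the lowest 7KC library.

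Both sensors were scarce in the control livers and close to 3-fold higher in the 7KC group. Nlrp3 (mm10 chr11:59541569-59566955, plus strand) encodes the sensor of crystals, potassium loss and other signs of cell damage. Its values were 0.989 and 0.698 FPKM in control replicates 1 and 2 and 2.57 and 2.76 FPKM in 7KC replicates 1 and 2. The 7KC libraries lay close together and well above the controls, with means of 0.843 ± 0.205 (SD) and 2.66 ± 0.134 FPKM, a ratio of 3.16. The log2 change was 1.24 (SE 0.18, 95% interval 0.78 to 1.70, limma adjusted p = 0.0596), just outside the threshold. Aim2 (chr1:173349547-173466040, plus strand) encodes the sensor of double-stranded DNA in the cytosol. It measured 0.947 and 0.958 FPKM in the controls and 2.46 and 3.06 FPKM with 7KC. The control values were nearly equal and the ratio of means was 2.90, with a log2 change of 1.16 (SE 0.17, 95% interval 0.73 to 1.59, limma adjusted p = 0.0596). By an estimate from transcript length, control replicate 2 held 37 reads of Nlrp3 and 35 of Aim2. The counting error alone then amounts to 16.5% and 17.0% of the value. These were the lowest estimates among the members, but Pycard cannot be ranked with them. Its estimate used a transcript of 3800 bases, longer than the span of the gene given below, so its reads may be overestimated. Aim2 overlaps Cadm3 on the opposite strand, which was at 1.20 and 1.35 FPKM in the controls and at 1.1 and 0.929 FPKM with 7KC, and its part in the Aim2 values was not tested.

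Pycard rose, by 2.88-fold. It encodes ASC, the adaptor that joins both sensors to caspase-1, and lies at chr7:127991373-127993867 on the minus strand. Its values were 2.08 and 1.87 FPKM in the controls and 5.77 and 5.61 FPKM with 7KC, a tight pair in each group. The means were 1.97 ± 0.149 and 5.69 ± 0.109 FPKM (SD, n = 2 each). Its log2 change was 1.32 (SE 0.13, 95% interval 0.99 to 1.66, limma adjusted p = 0.0336), and it ranked 43 among all tested genes by p. The call needed all but one of the libraries: the adjusted p was 0.0702 when control replicate 2 was left out, 0.15 when 7KC replicate 1 was and 0.239 when 7KC replicate 2 was, and the log2 change was at least 1.17 in every alternative tried. The call was also lost when no filter on low values was applied (limma adjusted p = 0.124) and with the replicate number as a block (limma adjusted p = 0.165). Pycard overlaps Gm45205 by 599 bases on the opposite strand, a gene for which no value was listed.

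The 2 inflammatory caspases lie side by side on chromosome 9 and were each a little over 2-fold higher in the 7KC group. Casp1 (chr9:5298517-5307281, plus strand) encodes the protease that matures both cytokines. It measured 4.95 and 3.87 FPKM in the controls and 9.87 and 8.64 FPKM with 7KC. The groups were well apart, with a ratio of 2.1 and a log2 change of 1.0 (SE 0.16, 95% interval 0.59 to 1.40, limma adjusted p = 0.0634). Casp4 (chr9:5308849-5336791, plus strand), also called caspase-11, encodes the receptor for bacterial lipopolysaccharide in the cytosol and begins 1568 bases after the end of Casp1. It measured 3.39 and 2.57 FPKM in the controls and 6.31 and 7.43 FPKM with 7KC. Its libraries did not overlap either, and the ratio was 2.30 with a log2 change of 1.09 (SE 0.17, 95% interval 0.65 to 1.52, limma adjusted p = 0.0623). The caspases share sequence with each other and with Casp12, and how the authors assigned reads that match several genes is not given in the sources used here, so their separate values are less certain than their common direction.

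Gsdmd, whose product gasdermin D is the pore former cut by both caspases, had a higher level than the genes upstream of it and a smaller log2 change. It lies at chr15:75862144-75867408 on the plus strand and was at 26.1 and 25.7 FPKM in the controls and at 34.9 and 33.2 FPKM with 7KC. Both groups were narrow and separate, and the ratio was 1.31. The log2 change was 0.39 (SE 0.10, 95% interval 0.12 to 0.65), with an unadjusted limma p of 0.0125 and an adjusted p of 0.159. Its interval lay wholly below those of Nlrp3, Aim2 and Pycard, and overlapped that of Casp1 and came close to that of Casp4, and the differences between genes were not tested.

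**Figure D3:**
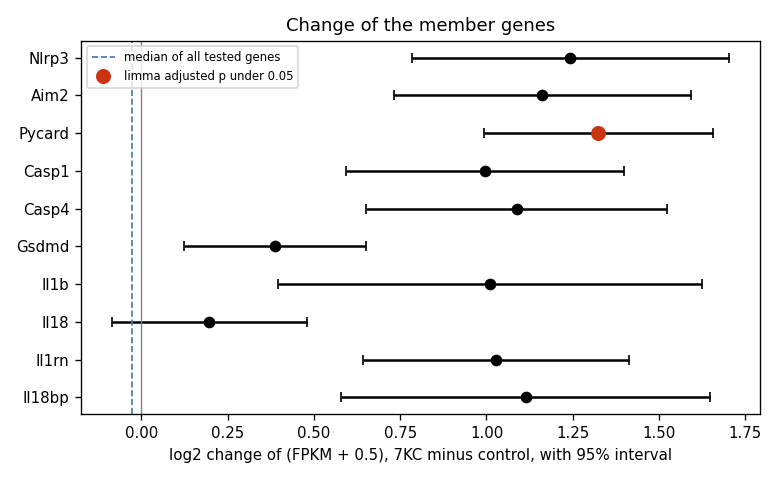
Log2 change of FPKM + 0.5 (7KC minus control) of the 10 members with 95% intervals from limma, and a dashed line at the median of all tested genes. The points of 8 members lie between 1.0 and 1.32, Gsdmd is at 0.39 and Il18 at 0.20 with an interval that crosses 0, and Pycard alone is marked as past the threshold.

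Il1b was about 2-fold higher in the 7KC group, and Il18, which was the more abundant of the 2 cytokine genes, was close to level. Il1b (chr2:129364569-129371164, minus strand) encodes IL-1β, a fever-inducing cytokine that macrophages make only after stimulation. It measured 6.56 and 4.52 FPKM in the controls and 9.57 and 13.8 FPKM with 7KC. The spread within each group was wide, with means of 5.54 ± 1.44 and 11.7 ± 2.97 FPKM (SD), but the groups did not overlap. The ratio was 2.11 and the log2 change 1.01 (SE 0.24, 95% interval 0.40 to 1.62, limma adjusted p = 0.130). Il18 (chr9:50554700-50581841, plus strand) encodes IL-18, an inducer of interferon gamma in T and NK cells whose precursor many cells hold ready-made. It measured 17.0 and 16.1 FPKM in the controls and 18.2 and 19.9 FPKM with 7KC. The groups were apart by little more than the spread within them, and the ratio of means was 1.15. The log2 change of 0.20 (SE 0.11, 95% interval -0.08 to 0.48, limma adjusted p = 0.409) could not be told from 0. Il18 overlaps Bco2 by 482 bases on the opposite strand, which was at 10.6 and 13.4 FPKM in the controls and at 12.3 and 10.5 FPKM with 7KC. On the same opposite strand it overlaps Tex12 by 4507 bases, at 0.288 and 0.892 FPKM in the controls and 0.360 and 0 FPKM with 7KC. Whether strand was used in counting is not given in the sources used here. Il1b overlaps the antisense gene Il1bos, which was listed at 0 in all libraries but 7KC replicate 1, where it was at 0.0613 FPKM.

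The antagonist genes were both more than 2-fold higher. Il1rn (chr2:24336860-24351491, plus strand) encodes the IL-1 receptor antagonist, which occupies the receptor without signaling. It measured 7.55 and 5.81 FPKM in the controls and 13.9 and 14.1 FPKM with 7KC. The 7KC libraries were almost equal and the ratio was 2.1, with a log2 change of 1.03 (SE 0.15, 95% interval 0.64 to 1.41, limma adjusted p = 0.0605). Il18bp (chr7:102015074-102018232, minus strand) encodes the soluble protein that captures IL-18 and is known to be induced by interferon gamma. It had the highest mean level in both groups, without being separate from Gsdmd in the controls, at 25.1 and 28.0 FPKM in the controls and 47.3 and 71.0 FPKM with 7KC. The 7KC libraries differed widely from each other, and the means were 26.6 ± 2.04 and 59.2 ± 16.8 FPKM (SD). The ratio was 2.23 and the log2 change 1.11 (SE 0.21, 95% interval 0.58 to 1.65, limma adjusted p = 0.0872).

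Each cytokine was then set against its own antagonist within a library, a ratio that no scaling of the libraries can move. The ratio of Il1b to Il1rn was 0.869 and 0.778 in the controls and 0.686 and 0.976 in the 7KC group. The 7KC libraries lay on either side of the controls, the mean log2 ratio was -0.28 ± 0.11 (SD) in the controls and -0.29 ± 0.36 with 7KC, and the difference of -0.01 was within the spread (two-sided exact permutation test, p = 1). The ratio of Il18 to Il18bp was 0.676 and 0.575 in the controls and 0.385 and 0.280 in the 7KC group. Both 7KC libraries lay below both controls, and the mean log2 ratio was -0.68 ± 0.17 (SD) in the controls and -1.61 ± 0.33 with 7KC, a difference of -0.93. The two-sided exact permutation test gave p = 0.333, the smallest that the 3 possible splits of these libraries allow. The transcript of the IL-18 antagonist thus outnumbered that of its cytokine per length in every library, and the excess was larger in both 7KC libraries.

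**Figure D4:**
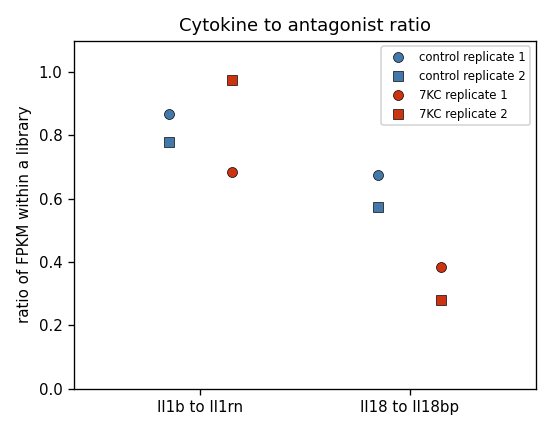
Ratio of cytokine to antagonist FPKM within each library (linear axis from 0) for Il1b to Il1rn and Il18 to Il18bp, with 1 point per library in the control and 7KC groups. The Il1b to Il1rn points overlap between the groups, from 0.686 to 0.976, and both 7KC points of Il18 to Il18bp, 0.385 and 0.280, lie below both controls.

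The order of the mean levels was the same in both groups, from Nlrp3 as the lowest through Aim2, Pycard, Casp4, Casp1, Il1b, Il1rn, Il18 and Gsdmd to Il18bp. In the controls the libraries of Nlrp3 and Aim2, Casp1 and Il1b, Il1b and Il1rn, and Gsdmd and Il18bp overlapped, so these neighbours could not be ranked. In the 7KC group only Nlrp3 with Aim2 and Casp1 with Il1b overlapped. By FPKM the sensors and the adaptor were thus at the low end, and the pore gene, Il18 and its antagonist at the high end, in both groups. The order also depends on the gene lengths the authors used. These are not given in the sources used here, so the ranks are approximate, least certain for Pycard.

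Of the member promoters, those of Casp4 and Nlrp3 are shown because they alone matched 1 of the 3 motifs searched. RefSeq windows from 250 bases before to 50 bases after the start site (GRCm38.p6, the same genome as mm10) were matched by symbol for 9 of the 10 members, with 13 windows in all. They were searched on both strands for the interferon-stimulated response element as GAAA, any 2 bases and GAAA, for the gamma-activated site as TTCNNNGAA and for the NF-κB consensus. The first was in no member window and in 3.44% of 32851 windows of all genes, and the second was in no member window and in 8.3%. The NF-κB consensus was in 3 windows and in 8.46% of all windows. They are 1 window of Nlrp3 and 2 of Casp4 that overlap and hold the same matches, so they stand for 2 promoters. The Casp4 window chr9:5308599-5308898 (plus strand) held 4 matches: overlapping ones that start 93 and 92 bases before the start site on the plus strand and 92 bases before it on the minus strand, and one 39 bases before it on the minus strand. The Nlrp3 window chr11:59541319-59541618 (plus strand) held 1 stretch, starting 186 bases before the start site, that matched on both strands. A match describes letters only, and binding was not measured. Capitals mark the matches.
Casp4: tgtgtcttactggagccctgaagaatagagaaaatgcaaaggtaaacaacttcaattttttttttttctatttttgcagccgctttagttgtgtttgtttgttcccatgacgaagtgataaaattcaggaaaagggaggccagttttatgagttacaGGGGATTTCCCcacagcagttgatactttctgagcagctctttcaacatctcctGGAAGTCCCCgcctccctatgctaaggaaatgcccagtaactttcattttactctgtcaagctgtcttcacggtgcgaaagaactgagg
Nlrp3: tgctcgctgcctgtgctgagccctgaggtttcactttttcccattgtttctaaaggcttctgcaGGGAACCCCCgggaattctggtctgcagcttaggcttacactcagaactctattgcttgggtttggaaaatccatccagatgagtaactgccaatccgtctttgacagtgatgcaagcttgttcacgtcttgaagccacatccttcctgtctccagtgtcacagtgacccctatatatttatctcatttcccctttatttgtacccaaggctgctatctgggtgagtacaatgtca

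The wider pathway was described by 58 other genes in 6 lists, of which 45 were tested. A positive change was seen in 33 and a negative one in 12, and 28 lay apart as higher and 4 as lower. Of all tested genes 25.1% lay apart as higher and 27.4% as lower, and these shares also apply to the counts of each list below. In limma 1 gene passed as higher and 0 as lower, with 19 higher and 3 lower at an unadjusted p under 0.05. Of all tested genes 0.0244% passed as lower and 5.81% were lower at that unadjusted p, and the median log2 change of the 45 was 0.37 against 1.06 for the members.

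Among 11 further sensors and adaptors, 8 lay apart as higher and 1 as lower, with a median log2 change of 0.62. Zbp1, an interferon-induced sensor of Z-form nucleic acid that can start NLRP3 activation and cell death, rose from 10.4 and 8.01 FPKM in the controls to 51.5 and 41.2 FPKM with 7KC. This log2 change of 2.27 (SE 0.18, limma adjusted p = 0.0244) was larger than that of any member. The call was lost when either 7KC library was left out, when no filter on low values was applied and with the replicate number as a block. Ifi204, a DNA sensor related to Aim2, was at 5.93 and 6.49 FPKM against 11.3 and 13.0 FPKM, a log2 change of 0.92 (limma adjusted p = 0.0568). The sensors of this list with a negative change were Nlrp6, at 28.5 and 34.2 FPKM against 28.3 and 25.5 FPKM (log2 change -0.21, limma adjusted p = 0.461), and Nlrp12, at 10.5 and 19.7 FPKM against 13.5 and 9.77 FPKM (log2 change -0.31, limma adjusted p = 0.641). Both were far above Nlrp3 in level.

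Of 10 upstream channels and regulators, 7 lay apart as higher and 1 as lower, with a median log2 change of 0.73, and none passed. Trim30a, an interferon-induced restraint of NLRP3, was at 3.31 and 2.87 FPKM in the controls and 6.21 and 7.08 FPKM with 7KC (log2 change 0.99, limma adjusted p = 0.0583). Btk, a kinase of B cells and myeloid cells that acts on NLRP3, was at 1.35 and 1.24 FPKM against 2.84 and 4.09 FPKM (log2 change 1.13, limma adjusted p = 0.0759). In the other direction, Brcc3, the enzyme that removes ubiquitin from NLRP3, was at 14.4 and 13.2 FPKM against 10.6 and 11.2 FPKM (log2 change -0.32, limma adjusted p = 0.242), and Txnip, a redox-sensitive NLRP3 partner, overlapped widely at 65.8 and 126 FPKM against 59.1 and 93.9 FPKM.

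Of the other caspases, gasdermins and pore genes, 6 of 6 tested were positive, 5 lay apart, the median log2 change was 0.35 and none passed. Casp12 had the largest of them, at 1.72 and 1.62 FPKM against 2.39 and 3.64 FPKM (log2 change 0.67, limma adjusted p = 0.205). Of 7 other IL-1 family cytokines, 3 were tested and none passed. Il1a, which shares the receptor of IL-1β, was at 3.26 and 2.2 FPKM against 4.98 and 6.13 FPKM (log2 change 0.92, limma adjusted p = 0.117). Il33, an alarmin, was at 1.32 and 0.743 FPKM against 2.03 and 2.85 FPKM (log2 change 0.95, limma adjusted p = 0.163). The cytokines of the IL-36 group other than Il36g, and Il1f10, were listed at 0 in all libraries.

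Of 8 receptors and decoys 5 were tested, 2 lay apart as higher and 2 as lower, the median log2 change was 0.01 and none passed. Both chains of the IL-18 receptor were higher. Il18r1, the binding chain, was at 0.619 and 0.539 FPKM in the controls and 1.78 and 1.64 FPKM with 7KC (log2 change 1.03, limma adjusted p = 0.0704), and Il18rap, the signaling chain, was at 0.545 and 0.307 FPKM against 1.27 and 1.15 FPKM (log2 change 0.90, limma adjusted p = 0.132). The markers of T and NK cells, which carry this receptor, were higher in the same libraries, and their part in the receptor values was not tested. Il1r1, the signaling receptor for IL-1, was picked out after its values were seen, and it overlapped at 19.5 and 17.7 FPKM against 18 and 19.5 FPKM (log2 change 0.01, 95% interval -0.28 to 0.31). Il1rap, the chain that IL-1 and IL-33 receptors share, was at 59.7 and 63.4 FPKM in the controls and 46.2 and 38.4 FPKM with 7KC (log2 change -0.54, SE 0.13, limma adjusted p = 0.134). Sigirr, an inhibitory member of the receptor family, was at 9.03 and 7.36 FPKM against 5.91 and 6.19 FPKM (log2 change -0.40, limma adjusted p = 0.240). Summed hepatocyte markers were lower in the same libraries, and their part in these values was not tested.

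Below the receptors, 10 of 10 genes were tested, 4 lay apart as higher and none as lower, the median log2 change was 0.04 and none passed. Irak3, an inhibitory kinase homologue of myeloid cells, was at 1.98 and 1.20 FPKM in the controls and 3.26 and 3.63 FPKM with 7KC (log2 change 0.94, limma adjusted p = 0.123). Myd88, the adaptor of the IL-1 and IL-18 receptors, was at 13.6 and 12 FPKM against 17.9 and 15.3 FPKM (log2 change 0.36, limma adjusted p = 0.257). Tollip and Map3k7 overlapped between the groups, with log2 changes of -0.09 and -0.06.

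**Figure D5:**
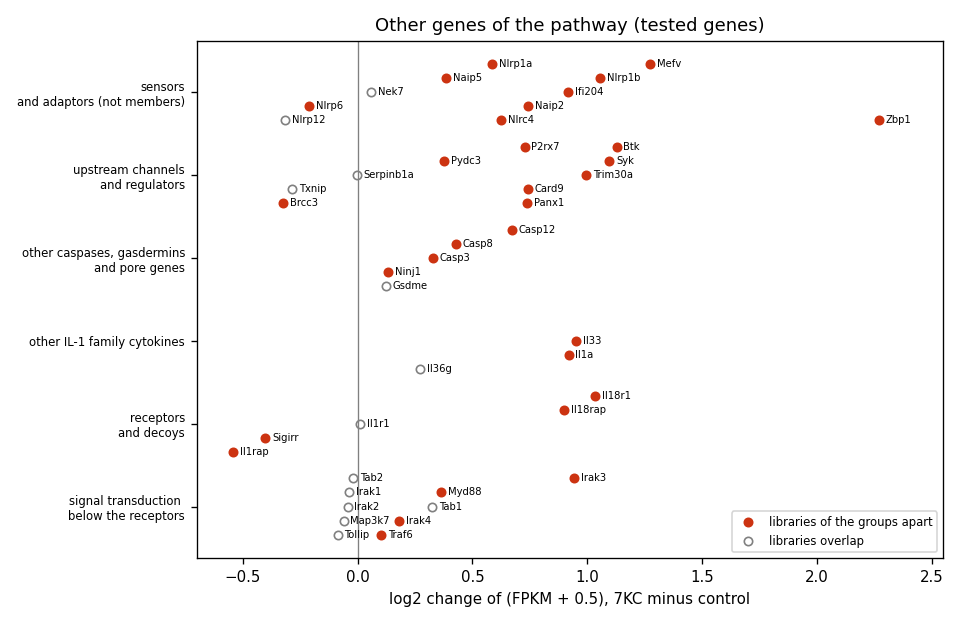
Log2 change of FPKM + 0.5 (7KC minus control) of the tested pathway genes that are not members, in rows by list and leaving out 1 gene that is not reported here, with filled points where the libraries of the groups were apart. Zbp1 at 2.27 lies farthest right and Il1rap at -0.54 farthest left. The signal transduction genes lie between -0.09 and 0.94, with Irak3 the highest, followed by Myd88 at 0.36 and Tab1 at 0.32.

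The genes whose pattern over the 4 libraries was most like that of each cytokine were found by the root mean square distance of centred log2(FPKM + 0.5) values among the 7172 genes whose mean reached 5 FPKM. For Il1b these were Selplg at a distance of 0.0176, Basp1 at 0.0286 and Cd48 at 0.035, and 34 genes lay within 0.1. Selplg, the ligand of P-selectin on leukocytes, was at 7.29 and 5.08 FPKM in the controls and 10.5 and 15.6 FPKM with 7KC. For Il18 these were Abhd6 at 0.00826, Snrnp40 at 0.0105 and Stk24 at 0.0116, and 803 genes lay within 0.1. The distance was not scaled by the size of the change, so nearly flat patterns like that of Il18 have many neighbours. The 2 counts therefore do not show how common the shape of either pattern is. With 4 libraries and 2 groups, these distances are a description only.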

How the data were processed

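RNA sequencing of mouse liver was used, with 4 libraries (2 control and 2 7KC), grouped by the labels. Per the labels, reads were aligned to mm10 with TopHat2 2.1.1 and Bowtie2 2.2.8, with SAMtools 0.1.18 and Cuffdiff 2.2.1, and the authors deposited 1 FPKM value per gene symbol and library. The methods text names other versions, and the annotation, strand and multi-read settings are not given in the sources used here. FPKM as defined is relative to all mapped fragments, so a change in abundant genes moves the others. The methods text states no library normalization setting, and the depth estimates assume division by mapped reads.

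Values were compared as log2(FPKM + 0.5) with limma (version 3.58.1, R version 4.3.3, functions lmFit and eBayes with a trend, 2 residual degrees of freedom and a prior of 3.27) over 12299 genes whose mean reached 0.5 FPKM, group only, Benjamini-Hochberg adjusted over all of them, threshold 0.05. The members and lists were chosen with earlier results of these data known. All members are named, together with each other pathway gene that passed and, per list, the 2 genes with the smallest p in each direction, apart from 1 gene that is not reported here. Ratios were tested by exact permutation.

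Depth was recovered from the steps of low values: of 436 low genes, 50.9% to 53.9% stood in whole ratios between libraries, within 0.4%. Read numbers per gene use GENCODE M21 transcript lengths less 200 bases and are approximate, least certain for Pycard. No count test was run, since whole reads were not recovered for nearly all genes. Alternatives changed the pseudocount, filter, scaling, prior, pairing and libraries.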

Additional observations from a re-analysis of the deposited data

How the results depend on the processing

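Under both other scalings, the only alternatives that could bring overlap, all 10 members stayed higher without overlap, against 30.8% (median ratio) and 46.5% (same sum) of all genes. Pycard passed in 8 of 13 (limma adjusted p 0.0199 to 0.239). In limma 59 genes were higher and 3 lower, with 1 member and 1 other pathway gene. With a pseudocount of 1, 111 were higher, and with median-ratio scaling 142. With scaling to the same sum, 398 were higher and 7 lower, with 7 members and 4 pathway genes. Without a trend 39 were higher and 1 lower. With no filter, limma called 0 genes higher and 1 lower, with 0 members and 0 pathway genes, although 2634 of 16858 had an unadjusted p under 0.05. Leaving out 1 library each gave 2 to 434 genes higher, 1 to 58 lower, 0 to 5 members and 0 to 6 pathway genes, and the lone sample left in a group is then assumed to vary like the other group. Most calls came without control replicate 1, where Nlrp3 (0.0324), Casp1 (0.0311), Casp4 (0.0295) and Il1rn (0.0219) passed with Pycard (limma adjusted p). The fewest came without 7KC replicate 2.

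With the replicate number as a block, limma called 0 genes higher, 0 lower, 0 members and 0 pathway genes, although 1851 had an unadjusted p under 0.05. The labels share only a number between the groups: deviations of same-numbered libraries correlated at -0.14. A crossed block, added after seeing the data, gave 551 higher (4.48% of all tested genes), 37 lower, 7 members and 8 pathway genes. The log2 difference of Il1b to Il1rn turned positive without control replicate 1 (0.07) and without 7KC replicate 1 (0.25), with a range of -0.26 to 0.25, and that of Il18 to Il18bp ranged from -1.16 to -0.69. A pseudocount of 0.1 and a mean of at least 1 FPKM changed no count by over 1.5 times. The cause of these changes was not tested. Apart from Pycard, whose read number is uncertain, depth limits Nlrp3 and Aim2 most among the members. The 2 libraries per group limit every call.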
